A study of Mus musculus with 24 samples.

Results

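Complement and acute phase genes were followed across mouse embryonic fibroblasts (MEFs) that lacked the transcription factor Myc, the factor Mlx of a related network, or both. The 9 genes were C1ra, C1s1, C4b, C3, Cfb, Serping1, Saa3, Lcn2 and Hp, out of 41710 genes listed in each of 2 tables of scaled read counts (CPM), one for primary and one for immortalized MEFs. They were found by gene symbol and were chosen partly on their values, because Cfb and Saa3 had changed strongly in these tables. The levels of Cfb and Saa3 are therefore described without a test, and tests were run on the other 7 genes. All 9 genes passed the filter on low values (at least 1 CPM in at least 3 of 12 libraries) in primary MEFs, where Lcn2 passed only through its DKO libraries. In immortalized MEFs 7 of the 9 passed, Hp only through its MlxKO libraries and WT library 4, and Saa3 and Lcn2 did not. Lcn2 was therefore left out of the counts in primary MEFs and Hp out of those in immortalized MEFs.

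Complement is a cascade of plasma proteins that tags surfaces and recruits inflammatory cells. The proteases C1r and C1s, encoded here by C1ra and C1s1, are activated when C1q binds its target, and they cleave C4 (C4b) and C2 to build an enzyme that cleaves C3, the central component on which all routes converge. Factor B (Cfb) supplies the protease of the alternative route, which amplifies C3 cleavage, and C1 inhibitor (Serping1) blocks C1r and C1s. Serum amyloid A3 (Saa3), lipocalin 2 (Lcn2), which binds bacterial iron carriers, and haptoglobin (Hp), which binds free haemoglobin, are acute phase proteins, made in larger amounts during inflammation. The liver is the main source of many of these proteins, and fibroblasts also make several of them.

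On the mouse build GRCm39, which the submitters used, GENCODE vM39 places C1ra (ENSMUSG00000055172) at chr6:124489364-124500402 on the plus strand and C1s1 (ENSMUSG00000038521) at chr6:124507297-124559389 on the minus strand, with 6894 bases between them. C4b (ENSMUSG00000073418, chr17:34947354-34962912) and Cfb (ENSMUSG00000090231, chr17:35074852-35081559) are both on the minus strand, with 111939 bases between them. C3 (ENSMUSG00000024164) is at chr17:57510964-57535155, Serping1 (ENSMUSG00000023224) at chr2:84595705-84620873, Lcn2 (ENSMUSG00000026822) at chr2:32274645-32278264, Saa3 (ENSMUSG00000040026) at chr7:46361422-46365576 and Hp (ENSMUSG00000031722) at chr8:110301759-110305804, all on the minus strand. The values cover the annotated exons of each gene as a whole. Near copies share sequence with 3 members: of the 50-base stretches in the annotated transcripts, 28.6% of those of C4b also occurred in C4a, 42.9% of those of C1ra in C1rb and 19.3% of those of C1s1 in C1s2. The copies themselves were low, with C4a between 0.234 and 2.00 CPM in primary and between 0.351 and 1.66 CPM in immortalized MEFs, and neither C1rb nor C1s2 above 0.392 CPM in any library. How shared reads were divided between copies is not given in the sources used here, so the lowest C4b values are uncertain. The predicted gene Gm20547 overlaps Cfb and holds 57.3% of its 50-base stretches, and reached at most 0.806 CPM.

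RefSeq promoters on GRCm38.p6 (250 bases before to 50 bases after a start site) were at hand for 5 of the 9 genes, C3, Lcn2, Saa3, C1ra and C1s1, the last with 2 start sites. All 9 members were highest in primary DKO MEFs, so this does not set the 5 apart, and the order of Saa3 and Lcn2 is not support. The 250 bases before the start of 3 of the 5 are shown as examples. They are chr17:57228137-57228386 for C3, chr2:32387740-32387989 for Lcn2 and chr7:46715677-46715926 for Saa3, all on the minus strand and written 5′ to 3′. Capitals mark a match to the C/EBP motif TTGCNNAA on either strand.
C3: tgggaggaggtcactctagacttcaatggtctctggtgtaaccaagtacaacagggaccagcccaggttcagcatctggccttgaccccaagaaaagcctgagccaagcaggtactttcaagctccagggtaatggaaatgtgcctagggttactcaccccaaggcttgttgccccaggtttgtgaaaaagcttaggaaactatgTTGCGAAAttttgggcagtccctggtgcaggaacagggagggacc
Lcn2: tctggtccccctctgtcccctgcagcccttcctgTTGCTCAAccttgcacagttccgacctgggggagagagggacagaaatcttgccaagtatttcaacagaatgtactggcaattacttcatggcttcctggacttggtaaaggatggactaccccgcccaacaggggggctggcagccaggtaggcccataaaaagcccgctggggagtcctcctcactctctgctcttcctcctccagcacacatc
Saa3: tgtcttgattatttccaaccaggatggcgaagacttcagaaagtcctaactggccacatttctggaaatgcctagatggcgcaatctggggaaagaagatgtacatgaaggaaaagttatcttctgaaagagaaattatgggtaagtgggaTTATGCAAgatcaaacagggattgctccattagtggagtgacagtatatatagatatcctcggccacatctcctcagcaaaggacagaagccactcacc
The match began at position -45 in C3, -216 in Lcn2 and -99 in Saa3, counted from the start site. C1ra (position 17) and 1 of the 2 C1s1 windows (position -242) held the same motif. The C/EBP letters thus occurred in a window of each of the 5 members. By window they occurred in 5 of 6, and in 10.8% of all 32851 promoter windows of the same length. The STAT motif TTCNNNGAA occurred in C1ra alone and in 8.30% of all windows. The E-box CACGTG, which Myc and Mlx complexes bind with their partners, occurred in none of the 6 windows and in 7.15% of all windows, and the NF-kB motif in none of the 6 and in 8.46% of all. Both strands were searched, and the C/EBP and STAT matches in C1ra did not overlap. A match or its absence describes these letters only.

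Each table held 12 libraries, 3 for each of 4 genotypes. MEFs came from embryos of days 14 to 16, with at least 6 embryos pooled for a line. The mice carried 2 floxed alleles of Myc, of Mlx or of both, with 2 copies of a tamoxifen-activated Cre (CreER) driven by ROSA26, and the knockout lines MycKO, MlxKO and DKO (Myc and Mlx together) were made with 500 nM 4-hydroxytamoxifen (4OHT). WT MEFs kept intact floxed loci, a single WT line served in most cases, and immortalized WT cells were grown without 4OHT. For primary cells the protocol gives ethanol vehicle as the alternative to 4OHT and does not say which a WT library received. Primary knockout cells received 4OHT for at least 7 days, were kept off it for at least 3 days, and RNA was taken at day 10. Immortalized cells were transformed with SV40 T-antigen before excision, and their knockouts received 4OHT for 10 days. The study calls the primary libraries biological replicates, but the sources used here do not say whether the 3 libraries of a genotype came from separate cultures, so the p-values measure the spread between these libraries, which may be technical, and genotype cannot be told apart from the pool of embryos behind a line. The libraries held 15986856 to 20966163 reads on genes in the primary table and 17541112 to 19851300 in the immortalized table. A count of 0 in a library allows up to 3 reads, 0.149 to 0.196 CPM in primary and 0.145 to 0.183 CPM in immortalized libraries, for counting error only. The tables were normalized separately, so no value was tested between primary and immortalized MEFs.

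The targeted genes were measured first. In primary MEFs Myc was at 89.8 to 100.1 CPM in WT, 25.8 to 26.8 in MycKO and 19.9 to 22.9 in DKO libraries, and Mlx was at 20.5 to 26.0 in WT, 13 to 14 in MlxKO and 9.73 to 12.0 in DKO libraries. In immortalized MEFs Myc was at 39.9, 48.1 and 177 CPM in the WT libraries and at 4.25 to 17.2 in the MycKO and DKO libraries, and Mlx was at 20.5 to 25.1 in WT and at 12.1 to 18.0 in MlxKO and DKO libraries. Every knockout library was thus below every WT library for the gene it lacked, although Mlx in immortalized DKO missed the threshold (-0.44, limma adjusted p = 0.0694).

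Libraries that stood apart are given before the results. Immortalized WT library 4, the one with 177 CPM of Myc, differed more than 2-fold from WT libraries 2 and 3 at 1313 and 1530 of 12880 genes, whereas libraries 2 and 3 differed from each other that much at 53. The summed level of 4 Y-linked genes (Ddx3y, Eif2s3y, Kdm5d and Uty) was 179 CPM in that library and 11.5 and 8.66 CPM in libraries 2 and 3. Immortalized results for the members are therefore given with and without it. The genotypes also differed in the level of these genes, looked at after the values were seen. In primary MEFs their sum was 97.5 to 111 CPM in WT, 117 to 121 in MlxKO, 125 to 161 in MycKO and 18.8 to 19.8 in DKO libraries, and Xist, the RNA made from the inactive X chromosome, was at 102 to 186 CPM in WT, MlxKO and MycKO and at 529 to 545 CPM in DKO libraries. In immortalized MEFs the Y-linked sum was 81.9 to 108 CPM in MlxKO, 36.5 to 39 in MycKO and 2.16 to 3.20 in DKO libraries. The primary DKO libraries, highest in the members, were thus also highest in Xist and lowest in Y-linked genes, and the part of this in the results below was not tested.

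In primary MEFs the loss of both factors went with higher levels of complement and acute phase genes. All 6 members counted rose in DKO against WT, by 1.31 to 1.73 on the log2(CPM + 1) scale, while 24.0% of the 13101 genes tested rose and 25.5% fell. Loss of Myc alone went with a split, in which the classical pathway genes C1ra, C1s1, C4b and their inhibitor Serping1 rose and Hp fell. Loss of Mlx alone went with lower C3 and Hp. The plot of the 9 genes by library shows these levels.

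**Figure D1:**
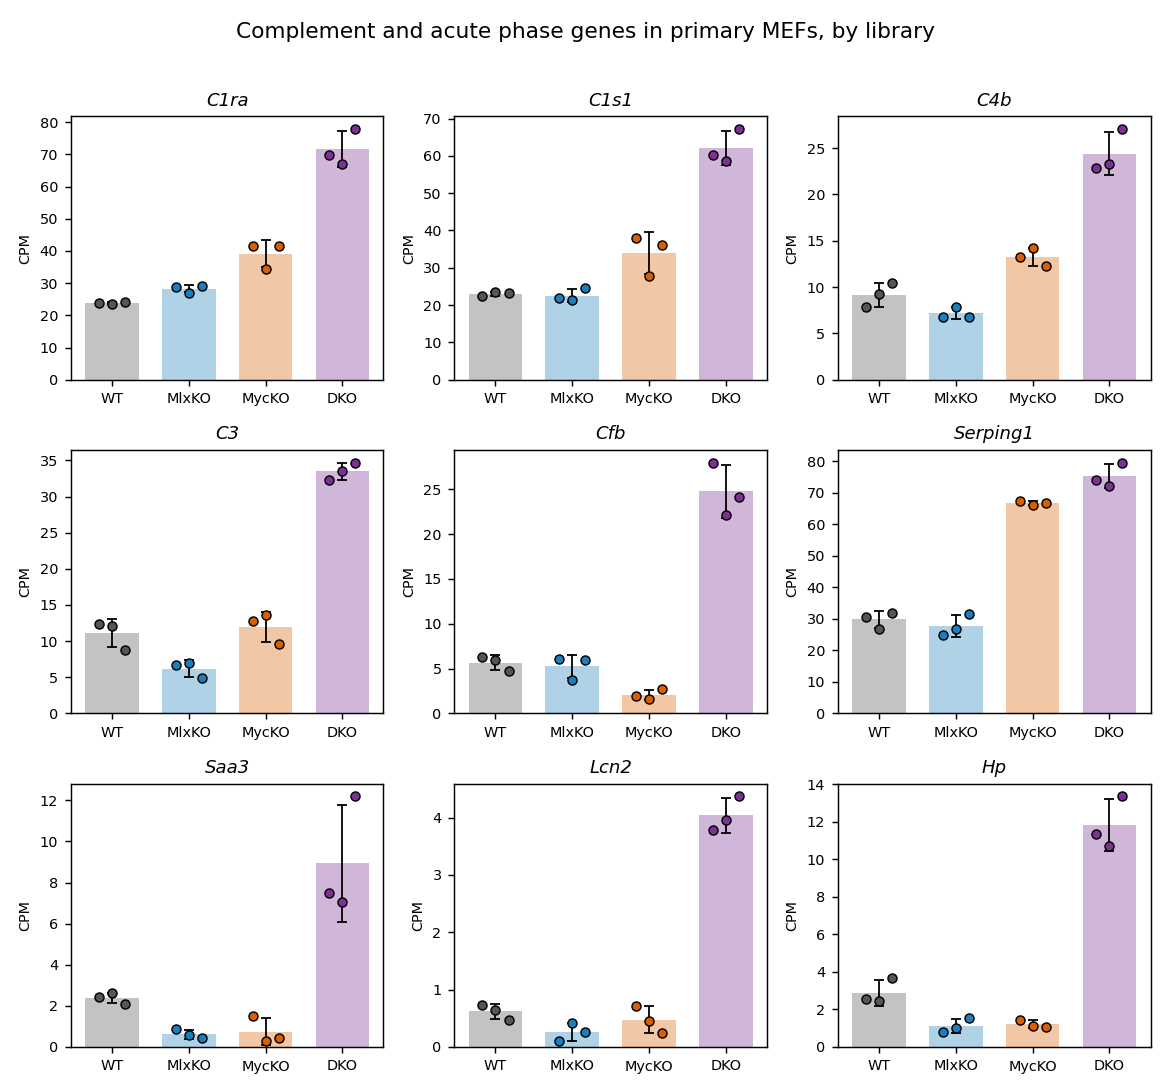
Level of each of the 9 genes (CPM, linear axis from 0) in the 12 primary MEF libraries, with 3 points per genotype, bars at the mean and error bars of 1 SD. Every gene has its 3 highest values in DKO libraries, from 3.78 to 4.38 CPM for Lcn2 to 72.0 to 79.5 CPM for Serping1. Of 13101 genes tested, 3925 had every DKO library above every WT library and 2359 had every DKO library above every MycKO library. Cfb and Saa3 were chosen on their values and Lcn2 passed the filter only through DKO, so their order is not support.

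The C1 proteases were alike in level and order. C1ra was at 23.9, 23.4 and 24.3 CPM in WT, 28.8, 27.0 and 29.0 in MlxKO, 41.6, 34.3 and 41.5 in MycKO and 69.7, 67.1 and 77.9 in DKO libraries. C1s1 was at 22.3, 23.4 and 23.3 CPM in WT, 21.8, 21.3 and 24.6 in MlxKO, 38.1, 27.7 and 36.2 in MycKO and 60.3, 58.6 and 67.2 in DKO libraries. For both genes MycKO lay above WT and DKO above MycKO without overlap. Of 13101 genes tested, 3070 had every MycKO library above every WT library and 3227 had all below. In MlxKO against WT 1831 lay wholly above and 1881 wholly below, and 2359 had every DKO library above every MycKO library. C1ra rose by 0.68 ± 0.09 (SE of the log2 difference, as below) in MycKO (limma adjusted p = 7.47e-06) and by 1.54 ± 0.09 in DKO (adjusted p = 8.43e-10, limma), a ratio of 3.0 between the mean CPM of DKO and WT. C1s1 rose by 0.53 ± 0.10 in MycKO (limma adjusted p = 0.000616) and by 1.39 ± 0.10 in DKO (limma adjusted p = 2.40e-08). In MlxKO neither passed the test, although C1ra lay 0.24 ± 0.09 higher (limma adjusted p = 0.0961) and passed once MycKO library 10 was left out of the fit (limma adjusted p = 0.0273).

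C4b, which C1s cleaves, was at 7.84, 9.29 and 10.4 CPM in WT, 6.77, 7.89 and 6.78 in MlxKO, 13.2, 14.2 and 12.3 in MycKO and 22.8, 23.3 and 27.1 in DKO libraries. Its MycKO libraries lay above WT and its DKO libraries above MycKO. It rose by 0.49 ± 0.12 in MycKO (limma adjusted p = 0.00267) and by 1.32 ± 0.12 in DKO (limma adjusted p = 1.15e-07). C3 behaved otherwise in the single knockouts. It was at 12.3, 12.1 and 8.82 CPM in WT, 6.66, 7.0 and 4.93 in MlxKO, 12.8, 13.5 and 9.61 in MycKO and 32.3, 33.6 and 34.7 in DKO libraries. MycKO overlapped WT (0.10 ± 0.15, limma adjusted p = 0.601), MlxKO lay below it and fell by 0.74 ± 0.15 (limma adjusted p = 0.00444), and DKO rose by 1.53 ± 0.15 (limma adjusted p = 3.32e-07).

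Cfb, one of the genes chosen on its values, was at 6.26, 5.92 and 4.68 CPM in WT, 6.02, 3.77 and 5.96 in MlxKO, 1.88, 1.57 and 2.69 in MycKO and 28.0, 22.2 and 24.1 in DKO libraries. Its mean in DKO was 12.1 times that in MycKO and 4.41 times that in WT, and its MycKO libraries were below all others. C2, the counterpart of factor B in the classical pathway, lay between 3.54 and 7.41 CPM over all 12 primary libraries.

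Serping1, the inhibitor, was at 30.6, 26.9 and 31.8 CPM in WT, 24.7, 26.9 and 31.5 in MlxKO, 67.4, 66.2 and 66.8 in MycKO and 74.1, 72.0 and 79.5 in DKO libraries. Both genotypes without Myc were high and close to each other. It rose by 1.14 ± 0.09 in MycKO (limma adjusted p = 4.88e-08) and by 1.31 ± 0.09 in DKO (limma adjusted p = 7.18e-09), and the difference of 0.17 ± 0.09 between DKO and MycKO did not pass (limma adjusted p = 0.200).

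The acute phase genes were lower in level, and Hp and Saa3 lay below WT in both single knockouts. Hp was at 2.54, 2.44 and 3.68 CPM in WT, 0.80, 1.02 and 1.54 in MlxKO, 1.44, 1.11 and 1.05 in MycKO and 11.3, 10.7 and 13.4 in DKO libraries. It fell by 0.88 ± 0.17 in MlxKO (limma adjusted p = 0.00358) and by 0.81 ± 0.17 in MycKO (limma adjusted p = 0.000927) and rose by 1.73 ± 0.17 in DKO (limma adjusted p = 3.67e-07). Saa3, chosen on its values, was at 2.43, 2.61 and 2.10 CPM in WT, 0.853, 0.598 and 0.411 in MlxKO, 1.5, 0.262 and 0.448 in MycKO and 7.51, 7.08 and 12.2 in DKO libraries. Its single knockouts lay below WT and overlapped each other. Lcn2 was at 0.734, 0.652 and 0.468 CPM in WT, 0.107, 0.419 and 0.257 in MlxKO, 0.721, 0.458 and 0.249 in MycKO and 3.78, 3.96 and 4.38 in DKO libraries. The DKO libraries, through which alone it passed the filter, lay 1.64 ± 0.17 above WT, given as a value and not as support, and MlxKO (-0.36 ± 0.17, limma adjusted p = 0.205) and MycKO (-0.14 ± 0.17, limma adjusted p = 0.540) did not pass. Outside DKO it rested on 2 to 13 reads per library.

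Against the background of each comparison, 4 of the 6 members counted rose and 1 fell in primary MycKO, where 20.4% of the genes tested rose and 21.9% fell. In MlxKO none of the 6 rose and 2 fell, where 3.75% rose and 5.14% fell, and edgeR and DESeq2 also called none higher and 2 lower. Of those not called, C1ra and C4b had an unadjusted limma p under 0.05. Over the 6 members the log2 differences had a median of 0.51 for MycKO, of -0.21 for MlxKO and of 1.46 for DKO, and that of all genes tested lay between -0.0023 and 0.0015.

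To ask what loss of Mlx added once Myc was absent, DKO was compared with MycKO, using the same DKO libraries as above. C3 (1.43 ± 0.15), C4b (0.83 ± 0.12), C1ra (0.86 ± 0.09), C1s1 (0.86 ± 0.10) and Hp (2.54 ± 0.17) rose, with limma adjusted p between 1.54e-08 and 5.60e-05, and Serping1 did not pass. These 5 of 6 stood beside 10.6% of genes that rose and 11.0% that fell. The Myc-by-Mlx interaction, the log2 difference of DKO from MycKO minus that of MlxKO from WT, tests whether the effect of Mlx loss depended on Myc. It was positive for Hp (3.42 ± 0.24), C3 (2.17 ± 0.21), C4b (1.15 ± 0.16), C1s1 (0.89 ± 0.15) and C1ra (0.62 ± 0.12), with limma adjusted p between 8.63e-08 and 0.00193, whereas 7.47% of genes had a positive and 6.07% a negative interaction. That of Serping1 was 0.27 ± 0.12 (limma adjusted p = 0.177) and passed once MlxKO library 7 was left out (limma adjusted p = 0.0475). For Cfb and Saa3, described only, the same quantity was 3.19 and 3.61. Lcn2, not counted, lay 1.78 above MycKO in DKO and had an interaction of 2.15.

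**Figure D2:**
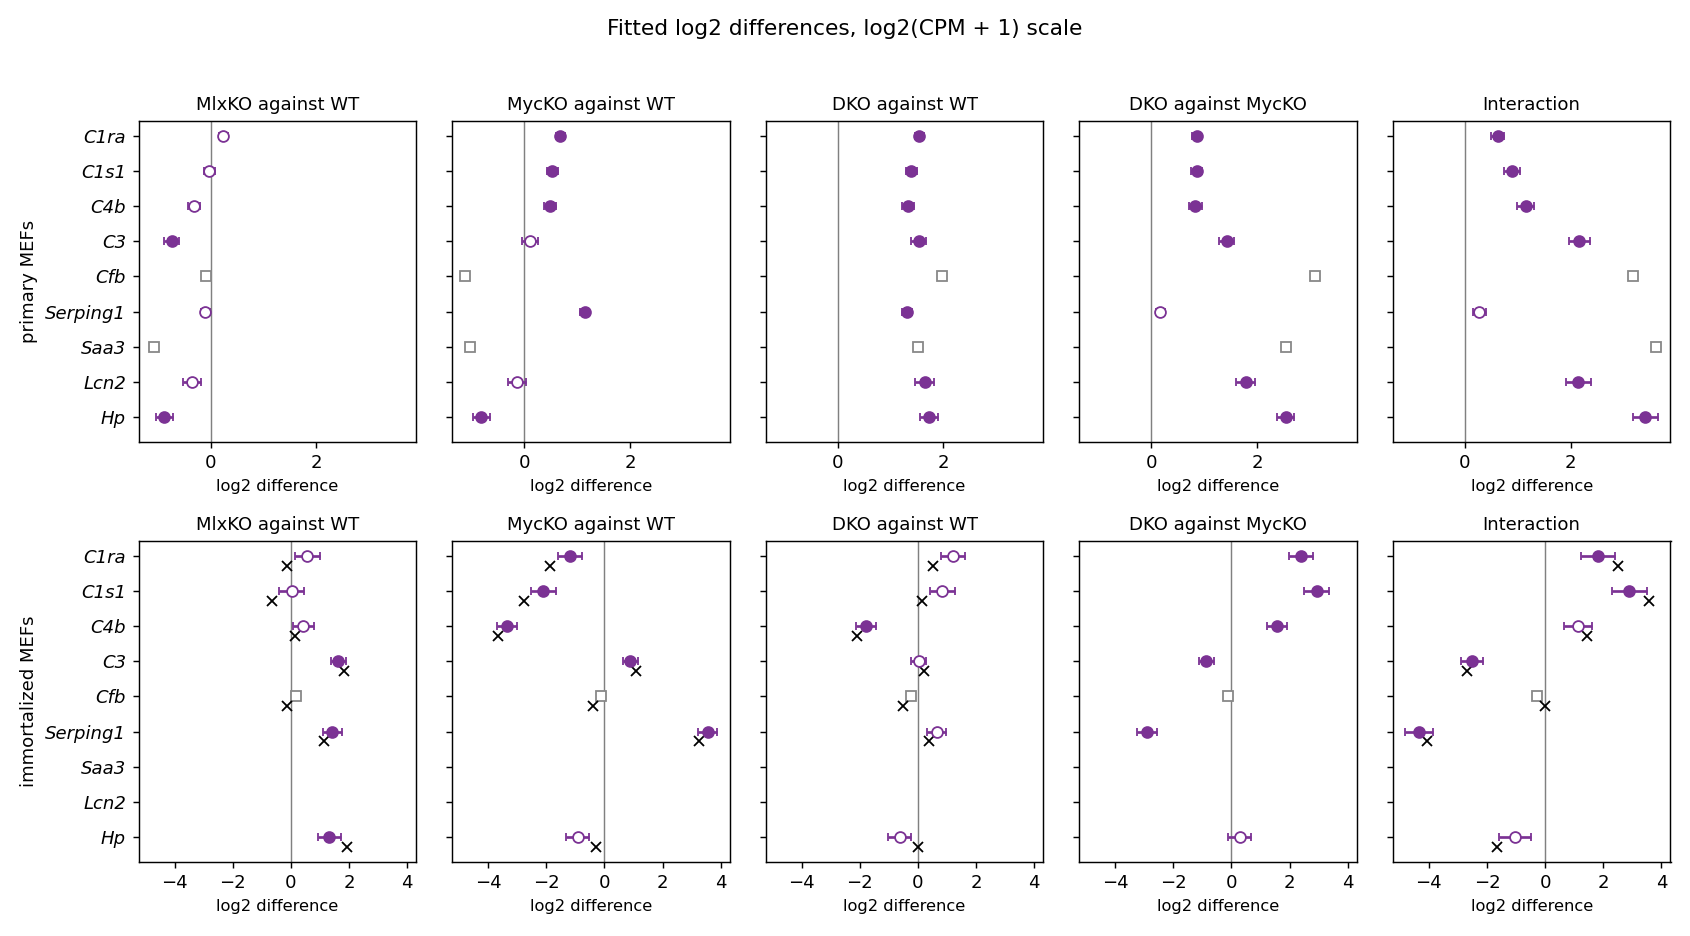
Fitted differences on the log2(CPM + 1) scale (x axis) for each gene (y axis) in the 5 comparisons, with primary MEFs above and immortalized MEFs below. Circles with bars are the estimate and 1 SE (filled where the limma adjusted p was under 0.05), squares are the genes described without a test, and crosses are estimates without immortalized WT library 4. In DKO against WT the primary circles lie between 1.31 and 1.73, while those of immortalized MEFs lie between -1.79 and 1.20.

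Per kilobase of annotated exon, Serping1 (24.8 ± 1.28 CPM per kb, SD), C1ra (22.5 ± 1.77) and C1s1 (17.9 ± 1.32) had the highest levels of the members in primary DKO MEFs, followed by Cfb (7.24 ± 0.87), Hp (6.94 ± 0.81), C3 (6.47 ± 0.23), C4b (4.03 ± 0.38), Saa3 (2.86 ± 0.91) and Lcn2 (1.54 ± 0.12). Serping1 and C1ra overlapped in this order, as did Cfb, Hp and C3, and C4b and Saa3. In primary WT MEFs the order began likewise with Serping1 (9.80 ± 0.84), C1ra (7.49 ± 0.13) and C1s1 (6.63 ± 0.17) and ended with Saa3 (0.763 ± 0.082) and Lcn2 (0.235 ± 0.052). The length joins the exons of all annotated transcripts of a gene (3118 bases for Saa3 and 2623 for Lcn2). Which transcripts were made was not tested, so the order between genes, these 2 included, is uncertain.

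Macrophages make C1q and complement receptors, and their markers differed between the primary genotypes. The summed level of 10 macrophage markers (Csf1r, Lyz2, Laptm5, Fcer1g and 6 others) was 296 to 563 CPM in WT, 321 to 397 in MlxKO, 51.9 to 75.2 in MycKO and 100.5 to 230 in DKO libraries. All 10 fell in MycKO and in DKO against WT, 7 of 10 rose in DKO against MycKO and 8 of 10 had a positive interaction. Over all genes tested, 21.9% fell in MycKO and 25.5% in DKO, 10.6% rose in DKO against MycKO and 7.47% had a positive interaction. Against WT the markers thus moved opposite to the members in DKO, but in DKO against MycKO and in the interaction they moved the same way, and DKO library 15 was highest in the markers and in 8 of the 9 members, all but Cfb. Without that library the 6 members counted still rose against WT, and 5 of them still rose against MycKO and had a positive interaction. DKO libraries 13 and 14 were still above MycKO in the macrophage markers, at 111 and 100.5 CPM. The part of these markers in the results for the members was not tested. In bulk RNA fewer cells of a type and less RNA per cell cannot be told apart. Of markers of other cells, those of neutrophils summed to at most 0.326 CPM and those of hepatocytes to at most 0.664 CPM in any primary library, and the adipocyte markers to 3.47 to 8.68 CPM, with Fabp4 the 1 gene that passed the filter. Endothelial markers were at 13.2 to 14.6 CPM in WT and 3.09 to 7.19 elsewhere, and epithelial markers at 16.5 to 19.9 CPM in WT and 1.95 to 4.78 elsewhere. Fibroblast markers summed to 34593 to 37155 CPM in WT and to 46657 to 47009 CPM in DKO libraries. In DKO, where 24.0% of all genes tested rose, 7 of these 9 markers rose, Dcn most (1.27).

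**Figure D3:**
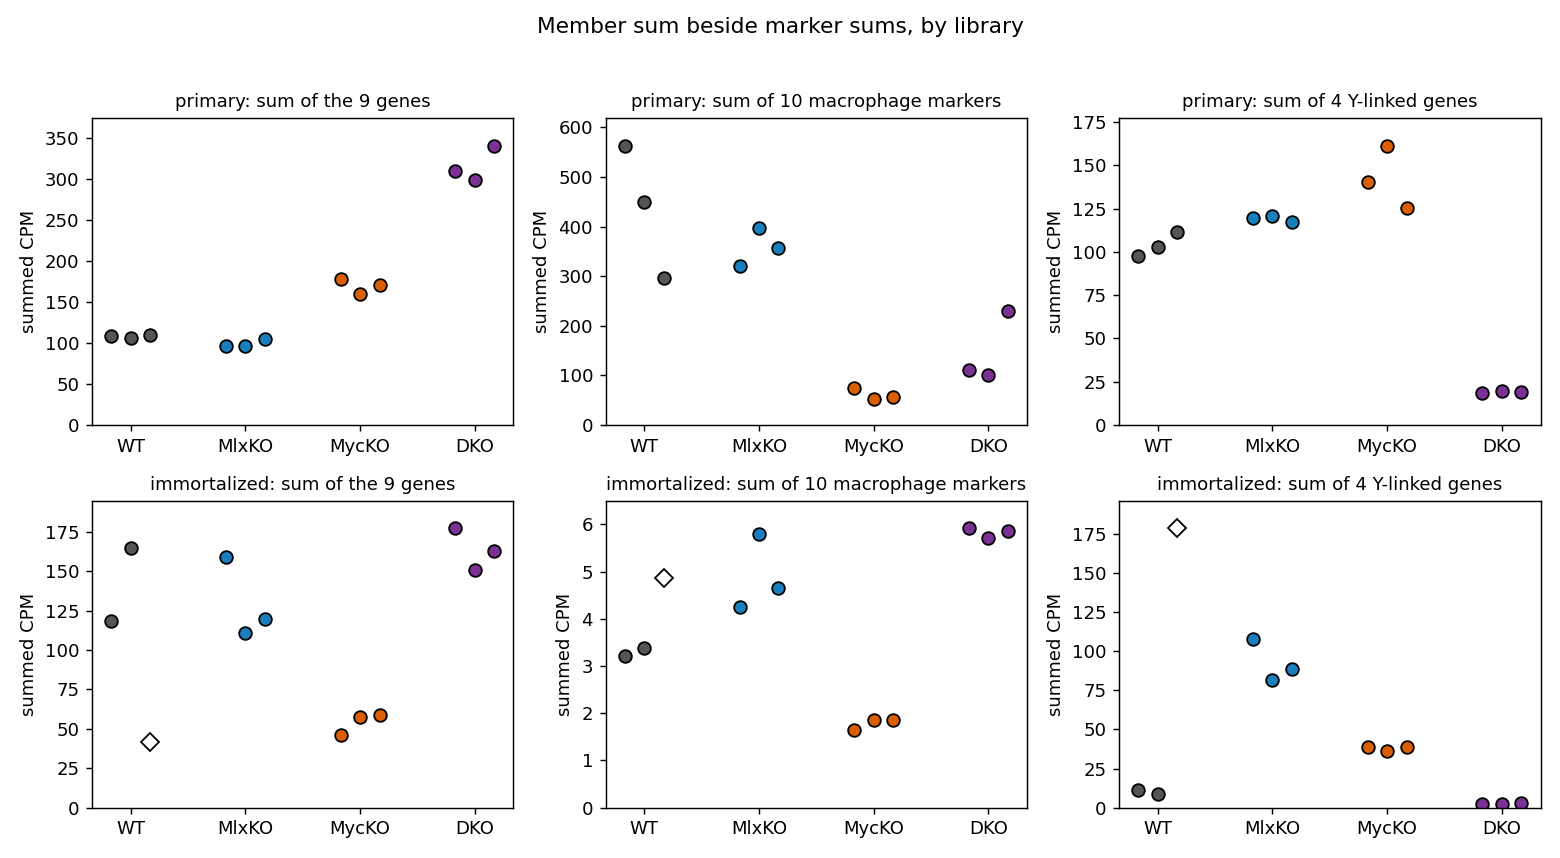
Summed CPM (linear axes from 0) per library of the 9 genes, of 10 macrophage markers and of 4 Y-linked genes, in primary MEFs (top) and immortalized MEFs (bottom); the open diamond is immortalized WT library 4. In primary MEFs the DKO libraries are highest in the 9 genes (299 to 340 CPM), below WT in macrophage markers and lowest in Y-linked genes (18.8 to 19.8 CPM).

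Other genes of the cascade were taken from lists by role. For the counts below, 20.4% of all genes tested rose and 21.9% fell in primary MycKO against WT. In primary DKO 24.0% rose and 25.5% fell against WT, and 10.6% rose and 11.0% fell against MycKO. Of 17 further initiation genes 8 passed the filter in primary MEFs. In MycKO 3 rose and 4 fell, and in DKO 3 rose and 4 fell, among them C1qa, C1qb and C1qc, the subunits of C1q. C1qb was at 20.9 to 50.5 CPM in WT, 3.04 to 5.82 in MycKO and 6.18 to 12.2 in DKO libraries. The receptors for C3a and C5a, C3ar1 and C5ar1, and the complement receptor chains Itgam and Itgb2 fell with them: 5 of 5 tested receptors (of 9 listed) fell in MycKO and in DKO, and 5 of 5 rose in DKO against MycKO. In MycKO C3ar1 fell by 2.80 ± 0.21 (limma adjusted p = 3.91e-08), and the log2 differences of C5ar1 (-2.75), Itgam (-2.57) and Itgb2 (-2.42) were close to it. Of 9 alternative and terminal genes only properdin (Cfp) passed the filter, at 7.48 to 16.5 CPM in WT and 2.55 to 3.14 in MycKO libraries, and adipsin (Cfd), the protease that activates factor B, reached at most 0.111 CPM. Of 12 regulators 6 passed and 4 of these rose in primary DKO. Cd59a, which blocks the membrane attack complex, was at 5.65 to 7.25 CPM in WT, 14.9 to 15.6 in MycKO and 39.7 to 43.5 in DKO libraries. Clusterin (Clu) was at 11.4 to 14.7 CPM in WT, 8.24 to 10.4 in MycKO and 26.8 to 32.7 in DKO libraries.

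Of 26 other acute phase genes 8 passed the filter in primary MEFs. In DKO, where 24.0% of all genes tested rose and 25.5% fell, 6 rose and 2 fell. Ceruloplasmin (Cp), a copper carrier, was at 4.73 to 6.10 CPM in WT, 4.28 to 5.56 in MycKO and 21.0 to 21.6 in DKO libraries, and rose by 1.85 ± 0.12 in DKO (limma adjusted p = 7.02e-09). Lipopolysaccharide binding protein (Lbp) rose by 1.77 ± 0.13 and the protease inhibitor Serpina3n by 1.30 ± 0.12. The metallothioneins Mt1 (-1.22) and Mt2 (-0.68) were the 2 that fell. The interleukin 1 receptor antagonist Il1rn was at 120 to 123 CPM in WT, 44.9 to 55.1 in MycKO and 134 to 148 in DKO libraries. Saa1, Saa2 and Crp, typical liver acute phase genes, had no reads in any library. Of 31 genes for the cytokines, receptors and transcription factors that drive the acute phase response, 29 were tested. In DKO 15 of these rose and 3 fell, beside 24.0% and 25.5% of all genes tested. Il6 was at 2.93 to 3.80 CPM in WT, 5.10 to 5.68 in MycKO and 7.50 to 9.76 in DKO libraries, and it was the one gene of this list past a 2-fold difference.

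The genes most alike to each member over the 12 primary libraries, by the root mean square (RMS) difference of centred log2(CPM + 1), were named without a test. C1s1 was the closest of all to C1ra and C1ra the closest to C1s1, and after the members came Fcgrt for C1ra (RMS 0.131) and Olfml2b for C1s1 (0.137). C4b was followed most closely by F3, the gene of tissue factor (0.139), which was also nearest to C3 (0.262). Hp was the closest of all to Saa3 (0.313). Members set aside, Gdf10 was nearest to Cfb (0.287), Saa3 (0.369) and Hp (0.28), and Cp was nearest to Lcn2 (0.172). Serping1 had Dcn, the gene of the matrix protein decorin, as its closest (0.082). Xist was the third gene named for Cfb (0.492).

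The same genes took another pattern in immortalized MEFs. Against WT, loss of Myc went with higher Serping1 and C3 and lower C4b, C1s1 and C1ra. Loss of Mlx alone went with higher C3 and Serping1, and in DKO C4b alone passed, and fell. Only 5 of the members were counted, since Lcn2 did not pass the filter, Hp passed it only through MlxKO and WT library 4, and Cfb and Saa3 were described only.

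**Figure D4:**
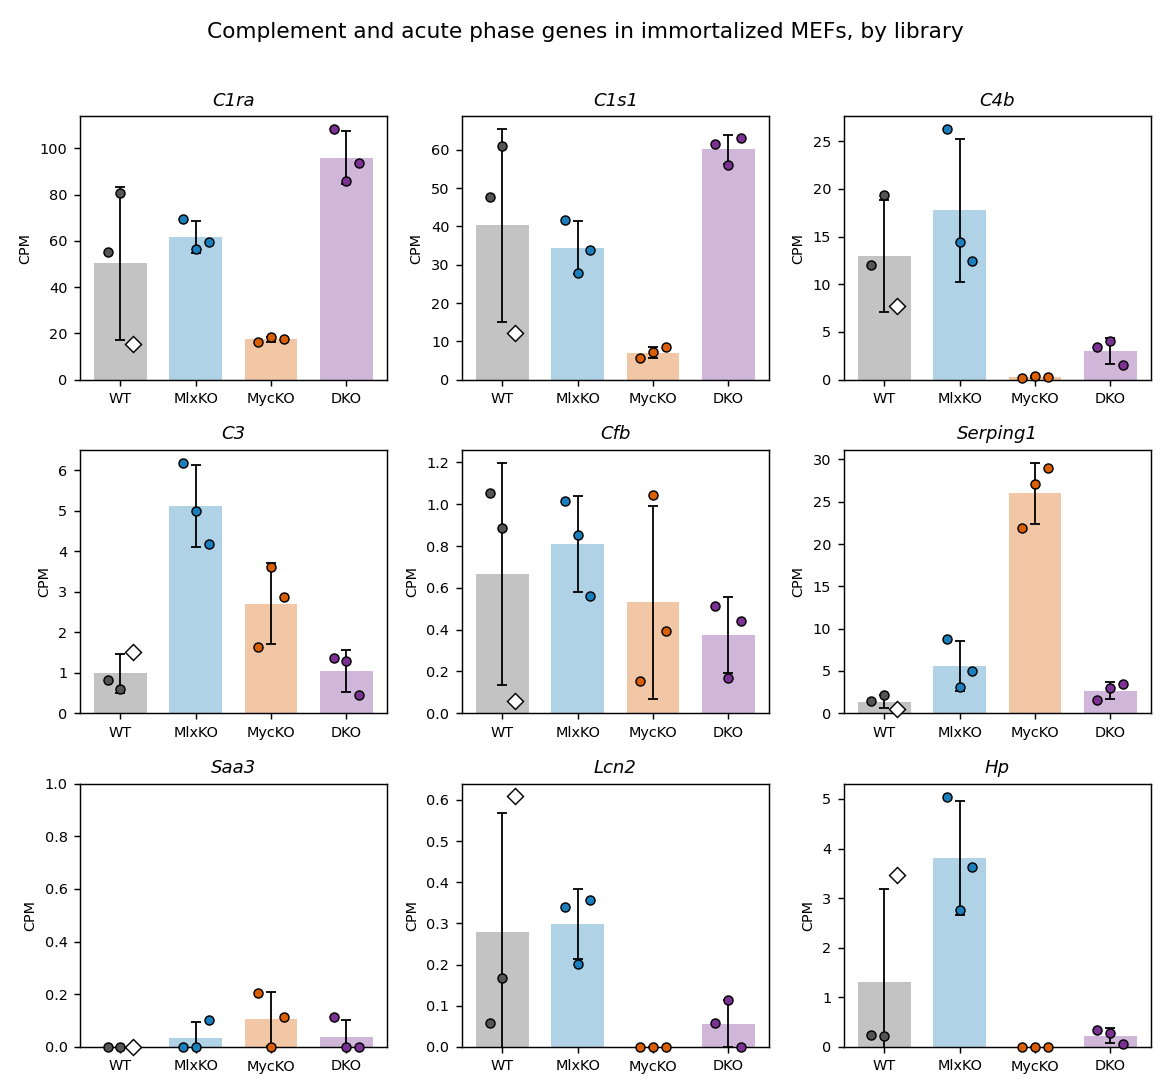
Level of each of the 9 genes (CPM, linear axis from 0) in the 12 immortalized MEF libraries, with 3 points per genotype, bars at the mean and error bars of 1 SD cut at 0; the open diamond is WT library 4. C1ra and C1s1 are low in MycKO (16.3 to 18.4 and 5.57 to 8.5 CPM), where WT library 4 (15.2 and 12.3 CPM) also lies, Serping1 is highest there (21.9 to 29.0 CPM), and Saa3 does not exceed 0.204 CPM.

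C1ra was at 55.2, 80.6 and 15.2 CPM in WT libraries 2, 3 and 4, at 69.6, 56.5 and 59.3 in MlxKO, 16.3, 18.4 and 17.7 in MycKO and 108, 85.8 and 93.8 in DKO libraries. C1s1 was at 47.7, 60.9 and 12.3 CPM in the same WT libraries, at 41.7, 27.9 and 33.9 in MlxKO, 5.57, 7.19 and 8.5 in MycKO and 61.4, 55.9 and 63.1 in DKO libraries. WT library 4 lay close to MycKO for both proteases and widened their error. In MycKO C1s1 fell by 2.10 ± 0.42 (limma adjusted p = 0.00175) and by 2.78 ± 0.18 without library 4 (limma adjusted p = 2.56e-08). C1ra fell by 1.19 ± 0.42 (limma adjusted p = 0.0333) and by 1.88 ± 0.16 without library 4 (limma adjusted p = 2.91e-07), but its call was lost on leaving out WT library 2 (0.115) or 3 (0.129), any MycKO library (0.0645 to 0.0835), when the low-value filter was dropped (0.0630) or with MycKO and WT fitted alone (0.116, all limma adjusted p). In DKO neither passed with all libraries, at 1.20 ± 0.42 for C1ra (limma adjusted p = 0.0632) and 0.84 ± 0.42 for C1s1 (limma adjusted p = 0.182). C1ra passed in DKO without library 4 (0.51 ± 0.16, limma adjusted p = 0.0310), and both passed without library 3 (1.68 and 1.26, limma adjusted p = 0.00869 and 0.0394). In MlxKO C1s1 was at 0.03 ± 0.42 with all libraries and fell by 0.65 ± 0.18 without library 4 (limma adjusted p = 0.0103), and C1ra passed only without library 3 (1.05, limma adjusted p = 0.0390).

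C4b, the substrate of C1s, was at 12.0, 19.3 and 7.67 CPM in WT, 26.3, 14.5 and 12.5 in MlxKO, 0.204, 0.384 and 0.281 in MycKO and 3.41, 4.07 and 1.49 in DKO libraries. MycKO lay below DKO and DKO below WT without overlap, and the MycKO values rested on 4 to 7 reads, no more than the 0.351 to 1.66 CPM of its copy C4a. Of 12880 genes tested, 2316 had every DKO library below every WT library and 3197 had every DKO library above every MycKO library. C4b fell by 3.36 ± 0.35 in MycKO (limma adjusted p = 1.43e-05) and by 1.79 ± 0.35 in DKO (limma adjusted p = 0.00484), and by 3.66 and 2.09 without WT library 4. C3 was at 0.820, 0.610 and 1.52 CPM in WT, 6.19, 5.0 and 4.18 in MlxKO, 1.64, 3.62 and 2.87 in MycKO and 1.36, 1.30 and 0.442 in DKO libraries. It was highest in MlxKO, where it rose by 1.64 ± 0.27 (limma adjusted p = 0.000942) and by 1.83 ± 0.26 without WT library 4 (limma adjusted p = 0.000111). In MycKO it rose by 0.89 ± 0.27 (limma adjusted p = 0.0154), a call lost without WT library 3 (limma adjusted p = 0.0529) or MycKO library 10 (limma adjusted p = 0.0675) and kept without WT library 4 (limma adjusted p = 0.00347), and DKO overlapped WT (0.03 ± 0.27, limma adjusted p = 0.951).

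Serping1 was at 1.46, 2.16 and 0.548 CPM in WT, 8.76, 3.05 and 4.95 in MlxKO, 21.9, 27.1 and 29.0 in MycKO and 1.59, 3.0 and 3.48 in DKO libraries. Its MycKO libraries were above all others. It rose by 3.55 ± 0.33 in MycKO (limma adjusted p = 6.43e-06) and by 1.43 ± 0.33 in MlxKO (limma adjusted p = 0.00608), and DKO did not pass (0.65 ± 0.33, limma adjusted p = 0.187). Without WT library 4 it rose by 3.26 in MycKO and by 1.15 in MlxKO (limma adjusted p = 1.11e-06 and 0.00845), and DKO again did not pass (limma adjusted p = 0.433). Its mean CPM in MycKO was 18.7 times that of WT, and 14.3 times that of WT libraries 2 and 3.

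Hp was at 0.234, 0.222 and 3.47 CPM in WT libraries 2, 3 and 4, at 5.03, 2.75 and 3.62 in MlxKO and 0.341, 0.283 and 0.0552 in DKO libraries, and had no reads in any MycKO library. It passed the filter through the MlxKO libraries and WT library 4 alone, so its difference in MlxKO, 1.32 ± 0.40 with all libraries and 1.94 ± 0.21 without library 4, is given as a value and not as support. Lcn2 was at 0.0586, 0.166 and 0.609 CPM in WT, 0.339, 0.200 and 0.357 in MlxKO and 0.0569, 0.113 and 0 in DKO libraries, and likewise had no reads in MycKO. Saa3 had 0 to 4 reads per library. Cfb was at 1.05, 0.888 and 0.0609 CPM in WT, 1.02, 0.851 and 0.561 in MlxKO, 0.153, 1.04 and 0.394 in MycKO and 0.512, 0.17 and 0.442 in DKO libraries, so the high DKO level seen in primary MEFs had no counterpart here.

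In immortalized MycKO 2 of 5 members counted rose and 3 fell, where 24.4% of 12880 genes rose and 23.5% fell, and without WT library 4 the counts were again 2 and 3, where 27.3% rose and 26.7% fell. In MlxKO 2 rose and none fell (the same counts by edgeR and by DESeq2, with none of the others at an unadjusted limma p under 0.05), where 19.1% rose and 19.9% fell, and without library 4 the counts were 2 and 1, where 23.1% rose and 23.8% fell. In DKO 1 fell and none rose (the same counts by edgeR and by DESeq2, with C1ra alone at an unadjusted limma p under 0.05 among those not called), where 10.4% rose and 8.51% fell, and without library 4 1 rose and 1 fell, where 12.0% rose and 10.1% fell. The shares of members called in MycKO, MlxKO and DKO rest on few genes, and their median log2 difference was -1.19, 0.57 and 0.65, beside medians of all genes between -0.0054 and 0.0073. A scaling by library totals moved the median of all genes in MlxKO by 0.16, and no call on the members changed with it.

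Compared with immortalized MycKO, DKO had higher C1s1 (2.93 ± 0.42, limma adjusted p = 0.000253), C1ra (2.39 ± 0.42, limma adjusted p = 0.00102) and C4b (1.57 ± 0.35, limma adjusted p = 0.00473), and lower Serping1 (-2.90 ± 0.33, limma adjusted p = 4.00e-05) and C3 (-0.86 ± 0.27, limma adjusted p = 0.0279). The C3 call was lost without MycKO library 10 (0.108) or 11 (0.0816), without DKO library 15 (0.121) or without the low-value filter (0.0506, all limma adjusted p). In this comparison 14.8% of genes rose and 14.6% fell. The Myc-by-Mlx interaction was positive for C1s1 (2.90 ± 0.60) and C1ra (1.82 ± 0.59) and negative for Serping1 (-4.33 ± 0.47) and C3 (-2.50 ± 0.38), where 23.7% of genes had a positive and 23.8% a negative one. That of C4b (1.13 ± 0.49) missed the threshold (limma adjusted p = 0.0744). Without WT library 4 the interaction was 3.58 for C1s1, 2.50 for C1ra, -4.05 for Serping1 and -2.69 for C3, and C4b (1.43, limma adjusted p = 0.0117) passed as well, where 28.0% of genes were positive and 28.6% negative. The C1ra interaction was lost without WT library 2 (0.0590), MlxKO library 6 (0.0535) or DKO library 13 (0.0503, all limma adjusted p).

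Macrophage markers in immortalized libraries summed to 1.64 to 5.91 CPM, and 1 of the 10 passed the filter, lower in MycKO and higher in MlxKO and DKO. Neutrophil markers summed to at most 0.0569 CPM, hepatocyte markers to at most 0.581 CPM and epithelial markers to at most 5.91 CPM. The endothelial list, of which Kdr alone passed the filter, summed to 13.3 to 17.3 CPM in MycKO and to 2.43 to 6.07 elsewhere, and the adipocyte list, of which Fabp4 alone passed, summed to 1.98 to 2.81 in MycKO and to 4.47 to 20.6 elsewhere. Fibroblast markers were present in all libraries. In MycKO, where 24.4% of all genes tested were higher and 23.5% lower, 2 of 9 were higher and 3 lower. Among them were Thy1 (at 633 to 640 CPM in MycKO and 14.9 to 123 in WT) and the collagen Col3a1 (575 to 819 against 2745 to 3464 CPM). The part of these differences in the results for the members was not tested.

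Of the complement lists in immortalized MEFs, 4 of 17 initiation genes, 6 of 12 regulators, 1 of 9 alternative and terminal genes and none of 9 receptors passed the filter. C2 rose by 2.14 ± 0.26 in MycKO (limma adjusted p = 4.51e-05), from 0.0609 to 0.888 CPM in WT to 4.14 to 8.24 CPM, and Masp1, a protease of the lectin route, was higher in all 3 knockouts. In MycKO 5 of 6 regulators fell and 1 rose, with Cd55, which dissociates the C3 cleaving enzymes, at 16.1 to 50.6 CPM in WT, 4.17 to 6.13 in MycKO and 42.0 to 46.9 in DKO libraries. Of 26 other acute phase genes 7 were tested, and in MycKO 1 rose and 2 fell: Serpina3n rose by 1.53 ± 0.23, Il1rn fell from 46.1 to 87.6 CPM to 2.64 to 3.78 CPM, and the pentraxin Ptx3 fell from 82.7 to 218 CPM to 21.9 to 24.5 CPM. Of the 31 signalling genes 28 were tested, and 8 rose and 8 fell in MycKO, near the share over all genes (24.4% higher and 23.5% lower), with Cebpa (-1.74) and Tlr2 (-1.59) among those lower and Il1r1, the interleukin 1 receptor, at 76.4 to 94.3 CPM in WT and 21.4 to 23.8 in MycKO libraries. Without WT library 4 the log2 differences in MycKO were 1.92 for C2, -2.80 for Cd55, -3.73 for Il1rn, -2.05 for Ptx3, 1.47 for Serpina3n and -1.95 for Il1r1, all past the threshold, and the counts higher and lower in MycKO were 3 and 1 for initiation genes, 1 and 5 for regulators, 2 and 3 for other acute phase genes and 8 and 9 for signalling genes. Without that library 27.3% of all genes tested were higher in MycKO and 26.7% lower.

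The nearest genes in immortalized MEFs differed from those in primary MEFs. They were Arrb1 for C1ra (RMS 0.184), Ctnnal1 for C1s1 (0.266), Agtr2 for C4b (0.544), Als2cl for C3 (0.268), Itga4 for Serping1 (0.442), Mc5r for Hp (0.206) and Zfp839 for Cfb (0.169), over 12 libraries and without a test. Per kilobase of exon C1ra (30.1 ± 3.58 CPM per kb, SD) and C1s1 (17.3 ± 1.1) led the members in immortalized DKO MEFs without overlap, and the next, Serping1, was at 0.886 ± 0.323. The same limit of exon length holds for this order.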

How the data were processed

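Poly-A RNA of 24 libraries (2 tables of 12) was sequenced from a strand-marking kit, and the submitters' processing notes name CLC Genomics Workbench 22 and the mouse build GRCm39. Whether counting used strand is not given in the sources used here. The authors deposited 1 scaled CPM signal for each gene and library. The deposited values have a different sum in each library, so they were treated as a normalized signal and not as plain CPM. Each value was a whole multiple of 1 read (100% of values within 0.1), which gave the reads per library and let count tests run as alternatives. Columns give a genotype and a library number, and outside primary WT the numbers of a group differ from the replicate numbers in its titles. Means, SDs and folds of means are on the CPM scale.

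Genes reaching 1 CPM in 3 or more libraries were tested with limma 3.58.1 (R 4.3.3, trend) on log2(CPM + 1), with the 4 genotypes of a table in one fit, Benjamini-Hochberg adjustment over all tested genes and a threshold of 0.05. This scale understates changes of low genes. The interaction was a contrast of the same fit. Alternatives were a pseudocount of 0.1, no filter, median-ratio scaling, library totals, only the groups compared, and leaving out each library. Recovered reads were also fitted by edgeR 4.0.16 and, separately, by DESeq2 1.42.0. The fits were tested on simulated data. The study took genes shared by several count tests, which was not done here. Column pairs held no identical libraries.

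The 9 genes and all lists (initiation, alternative and terminal, regulators, receptors, other acute phase, signalling, and markers of fibroblasts, macrophages, neutrophils, hepatocytes, adipocytes, endothelium and epithelium) were chosen with earlier results of these data known. From a list, at most 4 genes per table that passed with a log2 difference of at least 1 against WT were named with values, largest first; primary C2, Mt1, Mt2 and Cfd, Saa1, Saa2, Crp and the sex-chromosome genes were named after their values were seen. Some genes that this rule names are not reported here. For each member 3 most alike genes were found, leaving out predicted gene names.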

Additional observations from a re-analysis of the deposited data

Results flagged for a closer look

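In primary MEFs the effect of Mlx loss differed with Myc (limma interaction on the log2 scale) for Hp (3.42, adjusted p = 8.63e-08), C3 (2.17, 2.46e-06), C4b (1.15, 0.000125), C1s1 (0.89, 0.000514) and C1ra (0.62, 0.00193). That of Lcn2 was 2.15, a value without support, since Lcn2 passed the filter on low values only through the DKO libraries that carry it. In immortalized MEFs it differed for Serping1 (-4.33, limma adjusted p = 3.05e-05), C3 (-2.50, 0.000278), C1s1 (2.90, 0.00214) and C1ra (1.82, 0.0241).

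Some genes lay wholly on opposite sides of WT in the 2 tables, a difference that was not tested because the tables were normalized separately. In MycKO against WT C4b was at 0.49 in primary and -3.36 in immortalized MEFs, and C1s1 at 0.53 and -2.10. In MlxKO against WT C3 was at -0.74 and 1.64, and in DKO against WT C4b was at 1.32 and -1.79. Of 13101 primary genes tested, 3070 lay wholly above and 3227 wholly below WT in MycKO, 1831 and 1881 in MlxKO, and 3925 and 4035 in DKO. Of 12880 immortalized genes the counts were 3347 and 3229, 3076 and 3244, and 2467 and 2316 in the same order. How many of all genes lay on opposite sides in the 2 tables was not counted.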

How the results depend on the processing

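Of 1222 refitted values for the members tested, 656 in primary MEFs kept their side of the threshold and 2 gained a call. In immortalized MEFs 523 kept it, 17 gained a call, 23 lost it and 1 reversed: C1s1 in MlxKO, which ranged from -0.65 without WT library 4 to 0.46 without WT library 3. Many of these values left out a library of neither group compared, so the estimate could not change and only the shared error did. The values kept therefore do not all measure how stable a call was. Lcn2 in primary and Hp in immortalized MEFs are included in these values and in the counts that follow. They passed the filter only through libraries in which they were high, so their part is not support. The shares over all genes in the full fits are given with the main counts above. The number of members called on leaving out each library in turn ranged from 5 to 5 in primary MycKO, 2 to 3 in MlxKO, 7 to 7 in DKO, 6 to 6 in DKO against MycKO and 6 to 7 in the interaction. Over the 13101 genes tested these fits called 2236 to 3028 genes higher and 2464 to 3208 lower in MycKO. The same counts were 242 to 875 and 383 to 1147 in MlxKO, and 2690 to 3485 and 2928 to 3708 in DKO. They were 1028 to 1521 and 1025 to 1781 in DKO against MycKO, and 781 to 1149 and 612 to 1031 in the interaction. In immortalized MEFs the number of members called ranged from 3 to 5, 2 to 4, 1 to 3, 4 to 5 and 3 to 6 in the same order. Leaving out MycKO library 10 gave 3 member calls in MycKO, and leaving out WT library 3 or 4 gave 3 or 2 in DKO. Over all 12880 genes these fits called 2576 to 3516 higher and 2351 to 3435 lower in MycKO. The same counts were 1331 to 2969 and 1553 to 3064 in MlxKO, and 664 to 1758 and 451 to 1490 in DKO. They were 1348 to 2633 and 1230 to 2633 in DKO against MycKO, and 2479 to 3609 and 2477 to 3690 in the interaction. Hp in immortalized MycKO, at 0 reads, passed by edgeR (adjusted p = 0.00874) and DESeq2 (adjusted p = 1.53e-05), and Hp in MlxKO was lost by both (0.159 and 0.166) and by limma without WT library 2 or 3, without MlxKO library 5 or 7 or with both groups fitted alone; the cause was not tested. C4b passed the immortalized interaction by edgeR (2.88, adjusted p = 0.00583) and DESeq2 (2.91, adjusted p = 0.000128). Library totals split the calls over all genes as 1853 higher and 4051 lower in primary MycKO, 2481 and 4194 in DKO, and 3671 and 1584 in immortalized MlxKO, and moved the median of all genes by -0.18 in the immortalized interaction. No paired analysis was possible because nothing links a library of one genotype to a library of another. Outside primary WT the library numbers of a group also differ from the replicate numbers in its titles. Lcn2, Saa3 and Hp rest on few reads in most libraries, which limits small differences.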
